A study of Mus musculus with 8 samples.

Results

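The 10 genes described here encode the stress-sensing factor NRF2, its inhibitor KEAP1, a pair of small MAF partners and 6 enzymes or exporters that clear quinones, aldehydes, epoxides and their conjugates. They are Nfe2l2, Keap1, Mafg, Maff, Nqo1, Aox1, Ugt1a6a, Ephx1, Abcc1 and Cbr1, and all 10 were found by Entrez identifier among the 27179 genes of the count table. The genes were chosen from earlier comparisons of Kat7-deleted with Kat7-intact libraries in these same data. Their levels and fold changes are therefore given as a description, with no p-value.

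RNA was counted in cultures of proliferating neural stem and progenitor cells, each from 1 mouse fetus of strain C57BL/6 at E14.5 (embryonic day). Cells were grown as neurospheres, which are floating clusters of dividing precursors. The Kat7-deleted group (Kat7lox/loxNesCreT/+) and the Kat7-intact group (Kat7+/+NesCreT/+) held 4 cultures each, and both carry the NesCre transgene, in which Nestin sequences drive Cre in neural precursors. KAT7 is a histone acetyltransferase. The cultures came from 6 litters, each of a single genotype, which means that effects of litter and of genotype cannot be told apart.

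NRF2, the product of Nfe2l2, is a transcription factor that is made continuously and destroyed quickly. KEAP1 links it to the CUL3 ubiquitin ligase, and oxidants or electrophiles that modify KEAP1 let NRF2 build up in the nucleus. There it pairs with a small MAF protein and binds antioxidant response elements near genes for quinone reduction, glutathione synthesis and conjugate export. In the brain this programme is best known from astrocytes.

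The libraries held 10687817 to 22444359 counts, so that a single read equals 0.0436 to 0.0918 CPM. Levels in CPM are read counts brought to libraries of equal size. Kat7 itself had 416, 4, 253 and 1 reads in deleted replicates 1 to 4 and between 1204 and 2111 reads in the intact libraries. With this spread Kat7 did not pass the test (log2 fold change -3.02 ± 1.10, adjusted p = 0.128, edgeR). Its level was 26.4, 0.367, 13.9 and 0.0870 CPM in deleted replicates 1 to 4, against 84.0 ± 6.46 CPM in intact cultures. Which Kat7 exons the deletion removes is not given in the sources used here. The source of the Kat7 reads left in deleted replicates 1 and 3 was not tested. Stem and progenitor cell markers were present in all 8 libraries, with a summed level of 3939 to 7043 CPM in deleted and 5755 to 6789 CPM in intact cultures. Of these 10 markers, edgeR called 0. The highest sum, in deleted replicate 1, held 3037 CPM of Slc1a3 (543 to 1279 CPM in intact cultures). In that library Nes (831 CPM) and Vim (1105 CPM) were below every intact culture (at least 1284 and 1616 CPM). Of the 13498 genes tested with edgeR, 5.10% were called higher and 2.80% lower in deleted cultures (adjusted p under 0.05), which is 688 and 378 genes. Scaled by library totals alone, 309 genes were higher and 364 lower, which moved the median over all genes from 0.05 with TMM scaling to -0.09 (log2 fold change).

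Of the 10 genes, 3 passed the same threshold, all higher in deleted cultures, beside 7.90% of all tested genes called in either direction. These were the enzymes Nqo1, Aox1 and Ugt1a6a. The median log2 fold change of the 10 was 0.26, beside 0.05 over all genes tested. For 5 genes every deleted library lay above every intact library, a pattern found in 10.7% of tested genes, and the other 5 overlapped. The reverse, every deleted library below every intact one, was found in 9.21% of tested genes and in none of the 10. Because the members were chosen with these results known, the counts carry no test.

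Nfe2l2 (chr2:75675513-75704663, mm10) had 120.3, 141.9, 147.1 and 129.7 CPM in deleted replicates 1 to 4, against 116.6, 135.9, 130.3 and 99.2 CPM in intact replicates 1 to 4. The groups overlapped, and only intact replicate 4 stood below all other libraries. The means were 134.7 ± 12.1 CPM in deleted and 120.5 ± 16.3 CPM in intact cultures (SD, n = 4 each), a log2 fold change of 0.16 ± 0.13 (SE). Much of the known control of NRF2 acts on its protein, which was not measured.

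Keap1 (chr9:21229730-21239332) had 50.6, 46.5, 50.1 and 55.0 CPM in deleted cultures, against 43.1, 43.7, 41.5 and 44.2 CPM in intact cultures. All deleted values lay above all intact values, by a narrow margin between deleted replicate 2 and intact replicate 4. The log2 fold change was 0.23 ± 0.10, and Keap1 was not called. Within a library, counts per length of Keap1 were 0.209 ± 0.0285 of those of Nfe2l2 in deleted and 0.201 ± 0.0327 in intact cultures, so the ratio of the inhibitor to the factor overlapped between genotypes.

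Mafg and Maff encode small MAF proteins, which bind DNA but lack an activation domain of their own. Mafg (chr11:120625117-120634955) had 33.1, 32.1, 33.9 and 39.5 CPM in deleted cultures, against 26.6, 23.6, 26.1 and 28.5 CPM in intact cultures. The groups did not overlap, and the log2 fold change was 0.40 ± 0.12. Mafg was not called in edgeR with all libraries, but it was called without deleted replicate 2 at a log2 fold change of 0.44, with DESeq2 and with limma sample weights.

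Maff (chr15:79346621-79359078) was the less abundant partner, at 4.06, 12.5, 7.85 and 12.4 CPM in deleted cultures, against 12.7, 9.03, 8.22 and 9.77 CPM in intact cultures. Deleted replicate 1 was the lowest and the groups overlapped. The log2 fold change was -0.12 ± 0.34, but 0.13 once deleted replicate 1 was left out and 0.02 once intact replicate 1 was. Per length, Maff stood at 0.240 ± 0.104 of Mafg in deleted and 0.346 ± 0.0644 in intact cultures.

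Around the start sites of these regulators, RefSeq windows of 300 bases (GRCm38.p6, 250 before to 50 after the start) were read for the core of the antioxidant response element. The letters searched were TGACNNNGC on both strands, a pattern present in 12.4% of all 32851 windows. Counted by gene, since a gene can have several windows, it was present for 16.7% of the 10293 tested genes that have a window. Of the 9 members with a window, 3 held it, and all 3 were regulators. The matches are shown because NRF2 and its MAF partners are known to act on elements of this form. Capitals mark the match, which starts at -240 from the start site in Nfe2l2, at -222 in Mafg and at -112 in Maff. The Mafg letters are the reverse complement of the pattern, and the windows are chr2:75704614-75704913 on the minus strand, chr11:120633498-120633797 on the minus strand and chr15:79346371-79346670 on the plus strand.
Nfe2l2: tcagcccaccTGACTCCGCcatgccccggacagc
Mafg: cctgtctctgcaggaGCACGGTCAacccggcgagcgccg
Maff: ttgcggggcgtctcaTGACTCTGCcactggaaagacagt
A match of letters is not a measured site, and 1 of the 3 genes lay apart between genotypes while the other two overlapped.

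**Figure D1:**
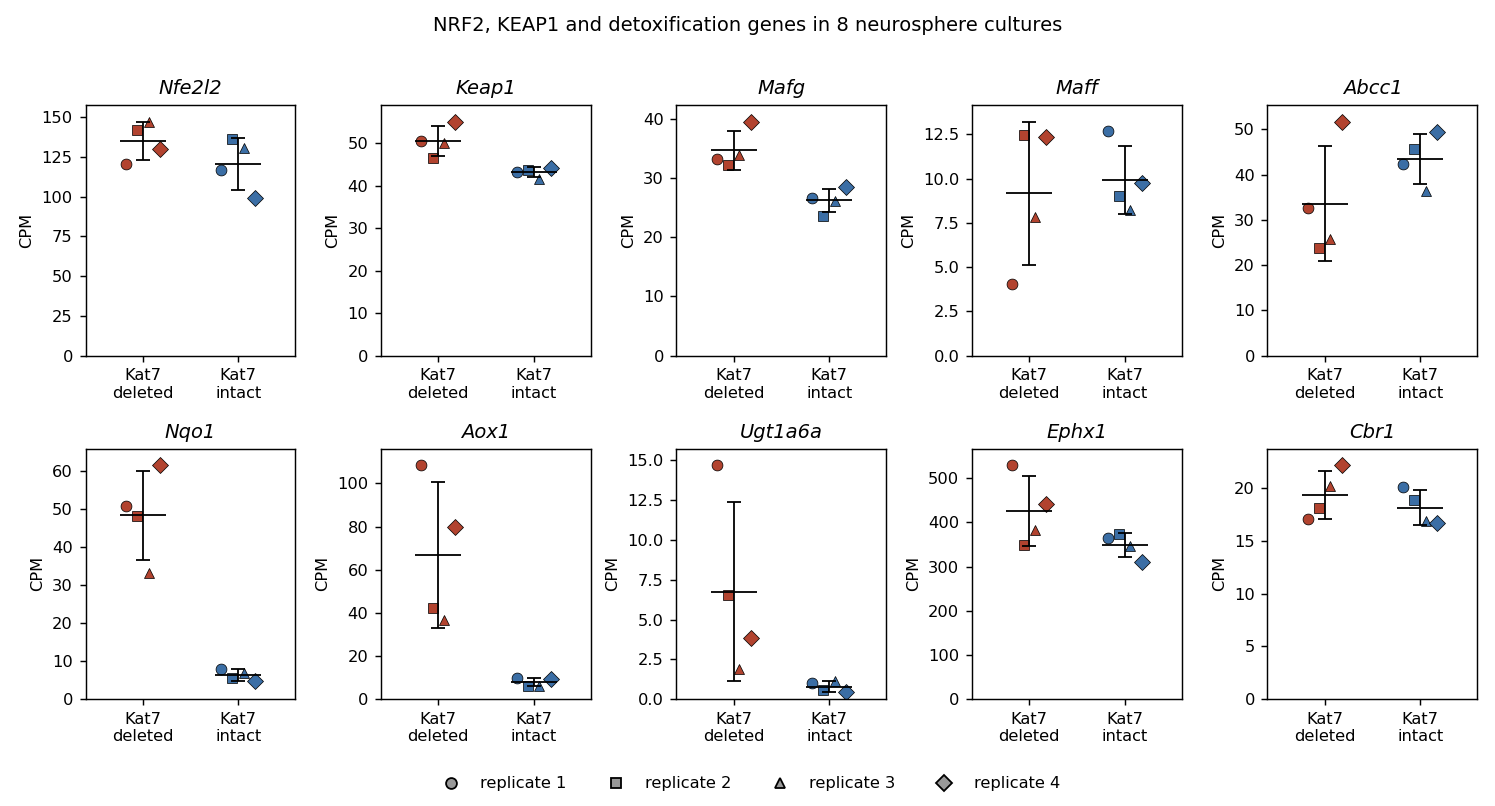
Level of each of the 10 genes in CPM (vertical axes from 0) in 4 Kat7-deleted cultures on the left and 4 Kat7-intact cultures on the right of each panel. Points are cultures, horizontal lines are means and bars are SD. All deleted cultures lie above all intact ones for Nqo1, Aox1, Ugt1a6a, Mafg and Keap1, while Nfe2l2, Maff, Abcc1, Ephx1 and Cbr1 overlap.

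Nqo1 encodes the quinone reductase that is the usual reporter of NRF2 activity. It had 50.8, 48.1, 33.3 and 61.7 CPM in deleted cultures, against 8.05, 5.56, 6.99 and 4.71 CPM in intact cultures. The lowest deleted culture, replicate 3, was above every intact culture, from 524 to 801 reads in deleted and from 93 to 143 reads in intact libraries. The means of 48.5 ± 11.7 CPM in deleted and 6.33 ± 1.49 CPM in intact cultures differed 7.66-fold, and the log2 fold change was 2.94 ± 0.24. The call held in all 22 settings tried, with log2 fold changes of 2.63 to 3.12.

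Nqo1 lies at chr8:107388225-107403205 on the minus strand. Its level was set beside those of Nfe2l2 and Cbr1 in the same library, which removes the library scaling. Counts per length of Nqo1 were 0.672, 0.539, 0.360 and 0.757 of those of Nfe2l2 in deleted cultures, against 0.110, 0.0651, 0.0854 and 0.0755 in intact cultures. The ratio to Cbr1, another quinone-reducing enzyme, was 1.75 ± 0.412 in deleted and 0.243 ± 0.0486 in intact cultures. Nqo1 thus outnumbered Cbr1 per length in every deleted library and stood below it in every intact library.

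Aox1 encodes aldehyde oxidase, a molybdenum enzyme that oxidizes aldehydes and nitrogen-containing rings. It had 108.5, 42.2, 36.8 and 79.6 CPM in deleted cultures, against 9.84, 6.16, 6.21 and 9.25 CPM in intact cultures. Deleted replicates 1 and 4 were the highest, and all 4 lay above the intact range. The means were 66.8 ± 33.7 CPM in deleted and 7.86 ± 1.95 CPM in intact cultures, with a log2 fold change of 3.09 ± 0.38. Without deleted replicates 1 and 4, which also had the highest shares of mitochondrial reads (29.9% and 34.4%, against 18.95% to 23.5% in intact libraries), it was 2.31 and Aox1 was still called. The neighbouring aldehyde oxidase genes Aox2, Aox3 and Aox4 had at most 5 reads in any library.

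The start-site windows of Nqo1 and Aox1 are printed whole because these members were called in all 22 settings. Neither holds TGACNNNGC. The Aox1 window (chr1:58029719-58030018, plus strand) holds TGACTCA, the sequence bound by AP-1 and shared in part by MAF elements, starting at -220 and marked in capitals. That motif, read on both strands, was in 5.20% of all windows, and it would overlap the longer one only where GC follows it. The Nqo1 window (chr8:107403156-107403455, minus strand) has neither motif, which says only that these letters are not in this window.
Nqo1: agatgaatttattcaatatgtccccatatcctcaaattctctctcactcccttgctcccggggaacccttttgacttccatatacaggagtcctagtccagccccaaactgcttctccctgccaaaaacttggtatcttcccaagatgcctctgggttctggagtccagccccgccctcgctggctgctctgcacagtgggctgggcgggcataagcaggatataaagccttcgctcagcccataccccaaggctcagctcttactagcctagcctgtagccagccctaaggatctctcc
Aox1: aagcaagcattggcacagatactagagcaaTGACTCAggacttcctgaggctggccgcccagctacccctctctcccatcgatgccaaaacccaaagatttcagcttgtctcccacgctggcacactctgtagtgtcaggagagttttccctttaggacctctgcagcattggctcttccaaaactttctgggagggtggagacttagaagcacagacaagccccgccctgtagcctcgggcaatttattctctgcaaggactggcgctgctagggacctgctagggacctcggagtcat

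Ugt1a6a encodes a UDP-glucuronosyltransferase, which couples phenols to glucuronic acid for excretion. It was the least abundant of the 10, with 232, 71, 35 and 44 reads in deleted libraries, against 14, 10, 23 and 10 reads in intact libraries. These were 14.7, 6.52, 1.92 and 3.83 CPM in deleted cultures, against 0.998, 0.598, 1.13 and 0.436 CPM in intact cultures. The groups did not overlap, but deleted replicate 3 was close to intact replicate 3, and values in the deleted group spread 7.65-fold. The log2 fold change was 3.09 ± 0.65, and 2.36 without deleted replicate 1. The call was lost when intact replicate 1, 2, 3 or 4 was left out, at log2 fold changes of 3.21, 2.98, 3.32 and 2.85, and also in the fits that allowed for shared litters.

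The Ugt1a genes on chromosome 1 share their last exons. In the GENCODE M21 annotation 50.3% of the exonic bases of Ugt1a6a (gene at chr1:88134809-88220002) also belong to another Ugt1a gene on the same strand. The other 7 Ugt1a genes in the table had 18 reads over all 8 libraries, against 439 reads for Ugt1a6a. Several of those 7 had 0 reads in every library, so reads of the shared exons do not appear to be counted for each gene. Which Ugt1a transcript gave such reads, and whether they were counted at all, is uncertain. If they were left out, the level per length of Ugt1a6a is understated.

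Ephx1 (chr1:180989556-181017569), the microsomal epoxide hydrolase, was the most abundant of the 10. It had 530.0, 347.9, 384.0 and 442.4 CPM in deleted cultures, against 365.6, 372.9, 347.8 and 310.1 CPM in intact cultures. Deleted replicate 1 was the highest and the groups overlapped, with a log2 fold change of 0.29 ± 0.16. Cbr1 (chr16:93607837-93610349), a carbonyl reductase of quinones and other carbonyl compounds, also overlapped, at 17.1, 18.1, 20.2 and 22.2 CPM in deleted cultures, against 20.1, 18.9, 16.8 and 16.7 CPM in intact cultures. Its log2 fold change of 0.10 ± 0.14 turned to -0.04 when libraries were scaled by their totals alone.

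Abcc1 (chr16:14361453-14474878) encodes an exporter of glutathione and glucuronide conjugates and is listed among NRF2 targets. It had 32.7, 23.9, 25.8 and 51.7 CPM in deleted cultures, against 42.3, 45.8, 36.5 and 49.5 CPM in intact cultures. Of the deleted cultures, 3 lay below the intact range and replicate 4 lay above it. The log2 fold change of -0.38 ± 0.24 was -0.66 without deleted replicate 4. It was -0.83, and called lower, when deleted replicates 1 and 4 were both left out.

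**Figure D2:**
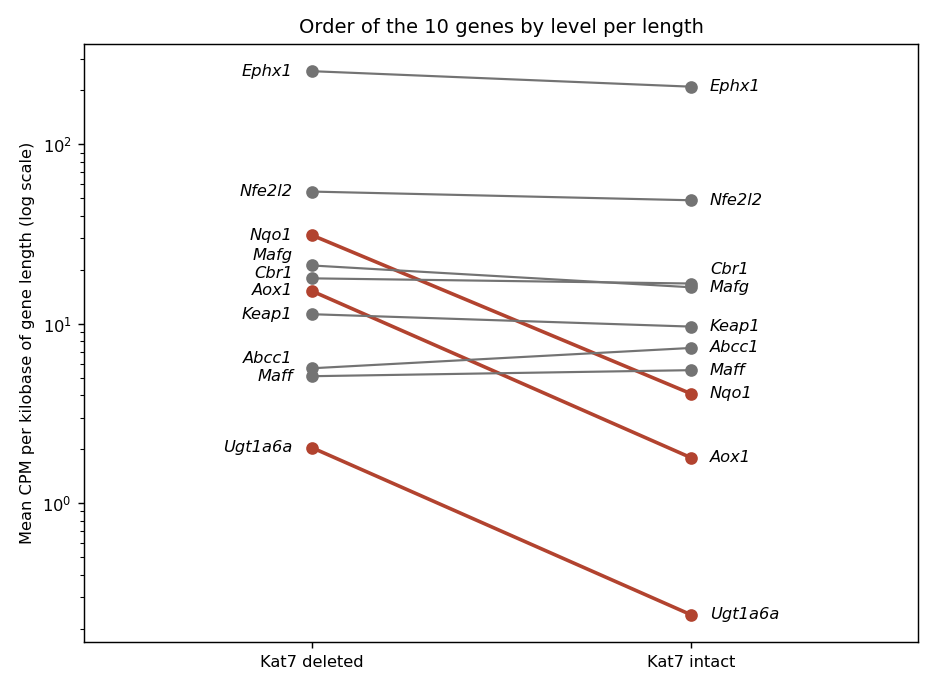
Mean level of the 10 genes in CPM per kilobase of gene length (log axis), with Kat7-deleted cultures on the left and Kat7-intact cultures on the right, and a line for each gene. Red lines mark the 3 called genes. Nqo1 ranked 3 in deleted and 8 in intact cultures, whereas Ephx1, Nfe2l2, Mafg and Ugt1a6a had the same rank in both.

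Ranked by CPM per kilobase in deleted cultures, the order was Ephx1 (256 ± 47.7), Nfe2l2 (54.6 ± 4.90), Nqo1 (31.2 ± 7.53), Mafg (21.1 ± 2.01), Cbr1 (17.9 ± 2.10), Aox1 (15.2 ± 7.69), Keap1 (11.3 ± 0.788), Abcc1 (5.65 ± 2.14), Maff (5.10 ± 2.24) and Ugt1a6a (2.04 ± 1.71). The ranges of mean ± SD overlapped between neighbours from Mafg to Keap1 and from Abcc1 to Ugt1a6a. In intact cultures the first and second places were the same, and then came Cbr1 (16.8 ± 1.53), Mafg (16.0 ± 1.22), Keap1 (9.65 ± 0.264), Abcc1 (7.33 ± 0.931), Maff (5.51 ± 1.08), Nqo1 (4.08 ± 0.958), Aox1 (1.79 ± 0.446) and Ugt1a6a (0.239 ± 0.0985). There, Cbr1 and Mafg were not separated by their SD ranges, nor were Abcc1 and Maff or Maff and Nqo1. Within deleted cultures the ratio of the highest to the lowest library was 2.95 for Aox1, 3.08 for Maff and 2.17 for Abcc1, but 1.18 for Keap1.

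**Figure D3:**
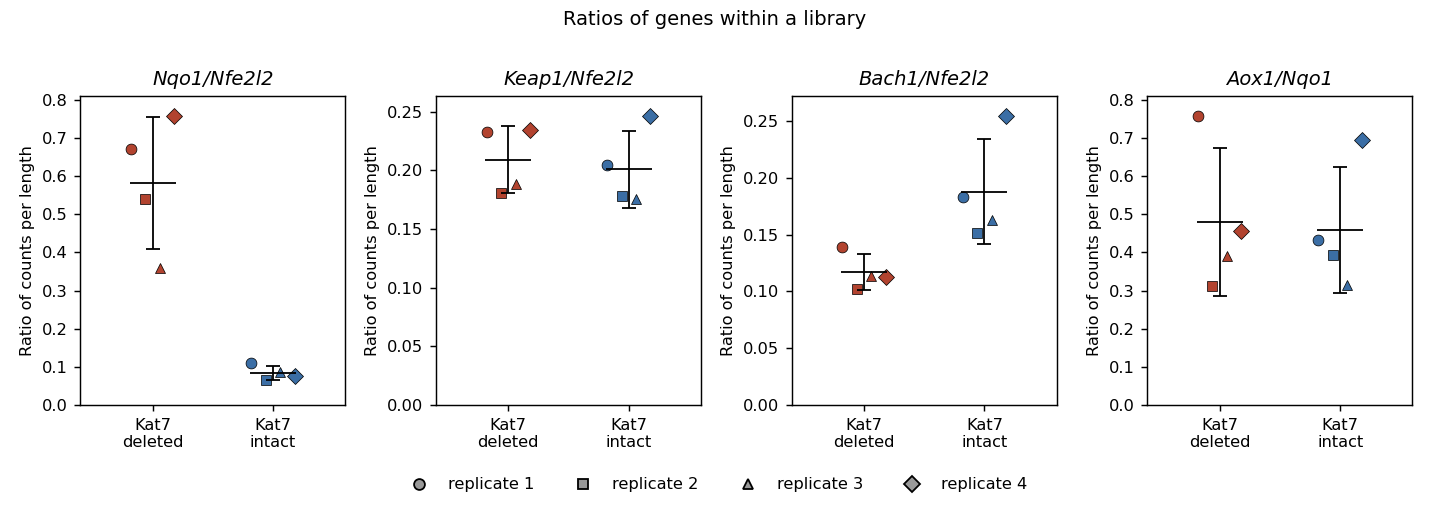
Ratio of 2 genes' counts per length within each library (vertical axes from 0), with Kat7-deleted cultures left of Kat7-intact cultures. Points are cultures, lines are means and bars are SD. Nqo1 relative to Nfe2l2 is higher in all 4 deleted cultures, Bach1 relative to Nfe2l2 is lower in all 4, and the other 2 ratios plotted overlap.

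Beyond the 10, 7 lists of further pathway genes held 138 genes, of which 99 were tested. In edgeR, 16 rose and 3 fell in deleted cultures, beside 5.10% and 2.80% of all tested genes. The median log2 fold change was 0.37, beside 0.05 for all genes. The lists, too, were drawn up with earlier results of these data known. Leaving out intact replicate 1, 2, 3 or 4 lowered the number called to 11, 10, 12 or 7, with no lower call left, while leaving out deleted replicate 2 raised it to 31. With DESeq2 the number was 30. Calls over all tested genes moved the same way, from 1066 to 2182 without deleted replicate 2 and to 2200 with DESeq2. Without intact replicate 1, 2, 3 or 4 they were 250, 192, 261 or 189.

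Of 17 genes that control the degradation of NRF2, some for and some against it, 1 rose in edgeR (Sqstm1). That share is near the 5.10% of all tested genes called higher. DESeq2 called 2 of the 17, beside 2200 of all 13498 tested genes. The median log2 fold change of the list was -0.14. Sqstm1, an autophagy receptor that can bind KEAP1, had 242, 282, 218 and 203 CPM in deleted cultures, against 119, 120, 110 and 98.8 CPM in intact cultures. Its log2 fold change was 1.08 ± 0.14 (adjusted p = 0.00711, edgeR). The ligase scaffold Cul3 averaged 168 ± 19.0 CPM in deleted and 195 ± 9.06 CPM in intact cultures (adjusted p = 0.287), and was named after its values were seen.

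Of 10 tested CNC, BACH and MAF factors, which share DNA elements or partners with NRF2, 2 rose and 1 fell. Of all tested genes, 5.10% were called higher and 2.80% lower. Nfe2l1, the NRF2 relative known for proteasome gene control, averaged 191.5 ± 8.67 CPM in deleted and 102.7 ± 8.66 CPM in intact cultures (log2 fold change 0.90 ± 0.11, adjusted p = 0.00592, edgeR). Maf, a large MAF factor with its own activation domain, averaged 16.8 ± 4.41 CPM in deleted and 6.99 ± 0.790 CPM in intact cultures (adjusted p = 0.0140, edgeR). The adjusted p for Maf was 0.0616 without intact replicate 2 and 0.0629 without intact replicate 4, and 0.0613 with littermates summed.

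The gene that fell was Bach1, whose product is a heme-sensing repressor that competes with NRF2 for the same elements. It had 39.7, 34.5, 39.7 and 34.7 CPM in deleted cultures, against 50.8, 48.7, 50.3 and 59.8 CPM in intact cultures. The groups did not overlap, and the log2 fold change was -0.50 ± 0.11 (adjusted p = 0.0376, edgeR). Counts per length of Bach1 were 0.117 ± 0.0156 of those of Nfe2l2 in deleted and 0.188 ± 0.0461 in intact cultures. The call did not hold without deleted replicate 3 (adjusted p = 0.0568), without deleted replicate 4 (adjusted p = 0.0750) or without intact replicate 1, 2, 3 or 4 (adjusted p = 0.0977, 0.0996, 0.0937 and 0.0965). It was also lost in each fit that allowed for shared litters, with litter as a random block (adjusted p = 0.0798, limma) and with littermates summed (adjusted p = 0.133, edgeR).

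Of 24 other NRF2 target genes tested, 8 rose and 1 fell, beside 5.10% and 2.80% of all tested genes. A fold change below 0 was found for 1 of the 24, beside 45% of all tested genes, and the median log2 fold change was 0.68. The cystine importer gene Slc7a11 had 328, 455, 243 and 481 CPM in deleted cultures, against 49.0, 53.9, 51.4 and 40.6 CPM in intact cultures (log2 fold change 2.95 ± 0.24, adjusted p = 0.00211, edgeR). The biliverdin reductase gene Blvrb averaged 28.9 ± 4.75 CPM in deleted and 11.8 ± 0.602 CPM in intact cultures. The ferritin heavy chain gene Fth1 averaged 508 ± 185 CPM in deleted and 137 ± 20.4 CPM in intact cultures, and the glutathione transferase gene Gstm1 184 ± 69.2 CPM in deleted and 31.1 ± 9.18 CPM in intact cultures. Reads of Gstm1 are uncertain because it has near-identical relatives. The others that rose were Gclm, Srxn1, Hmox1 and Gstm2. Gstm2 was scarce, with 20, 21, 32 and 30 reads in deleted libraries, against 2, 0, 6 and 3 reads in intact libraries. The uncertainty given for Gstm1 applies to it as well.

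Not every known target moved that way. Txnrd1, the cytosolic thioredoxin reductase and a textbook NRF2 target, was the gene that fell. It averaged 239 ± 9.57 CPM in deleted and 351 ± 18.7 CPM in intact cultures, with a log2 fold change of -0.55 ± 0.11 (adjusted p = 0.0228, edgeR), and it was named after its values were seen. The call was lost without intact replicate 1, 2, 3 or 4 and with littermates summed, settings in which no gene of the lists was called lower. Also outside the rule for named genes, Gclc, the catalytic partner of Gclm, averaged 127 ± 29.0 CPM in deleted and 100.2 ± 13.5 CPM in intact cultures (adjusted p = 0.271, edgeR). The glutathione reductase gene Gsr averaged 114 ± 5.54 CPM in deleted and 113 ± 3.40 CPM in intact cultures.

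**Figure D4:**
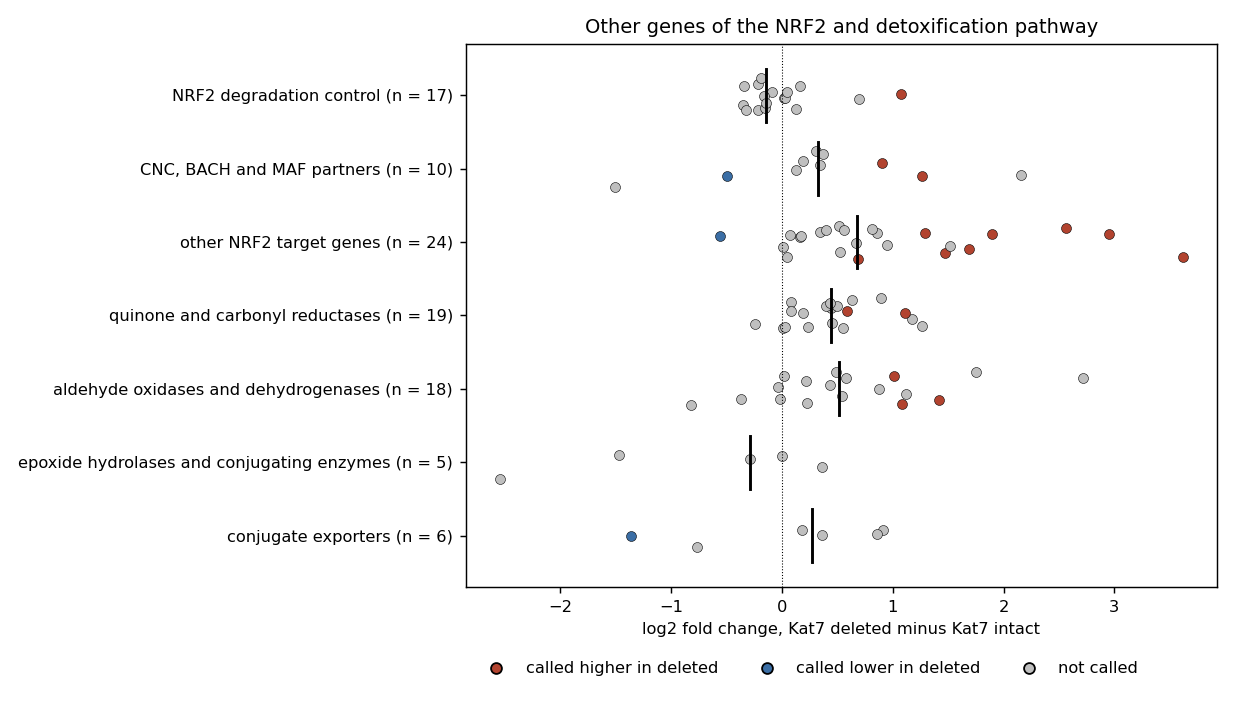
Log2 fold change (deleted minus intact) of each tested gene of the 7 further pathway lists, with black bars at list medians. Red points were called higher and blue points lower in Kat7-deleted cultures. The list of other NRF2 target genes has 8 higher calls and 1 lower call among 24 genes.

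Other enzymes act on the same kinds of compound as the members. Of 19 tested quinone and carbonyl reductases, 2 rose (beside 5.10% of all genes) and 1 had a fold change below 0 (beside 45% of all genes), with a median log2 fold change of 0.44. Dhrs4, a carbonyl reductase of peroxisomes, averaged 17.3 ± 1.78 CPM in deleted and 8.01 ± 2.71 CPM in intact cultures (adjusted p = 0.0313, edgeR). Cyb5r3, a cytochrome b5 reductase, averaged 211 ± 35.5 CPM in deleted and 140.0 ± 10.3 CPM in intact cultures (adjusted p = 0.0444, edgeR). Without 1 library, the call of Dhrs4 was lost for deleted replicate 3 and intact replicates 1, 2 and 4 (adjusted p 0.0649 to 0.107), and that of Cyb5r3 for every library but deleted replicate 2 (0.0503 to 0.142). Both were also lost with litter as a random block (0.0544 for Dhrs4, 0.0968 for Cyb5r3, limma) and with littermates summed (0.112 and 0.148, edgeR).

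Of 18 tested aldehyde oxidases and dehydrogenases besides Aox1, 3 rose, beside 5.10% of all tested genes. Aldh1l2, the mitochondrial formyltetrahydrofolate dehydrogenase, averaged 77.6 ± 16.6 CPM in deleted and 36.5 ± 3.14 CPM in intact cultures (adjusted p = 0.00959, edgeR). Aldh2, the mitochondrial acetaldehyde dehydrogenase, averaged 49.3 ± 17.1 CPM in deleted and 18.4 ± 1.50 CPM in intact cultures (adjusted p = 0.0136, edgeR). Aldh3b1, which acts on lipid aldehydes, averaged 22.3 ± 2.99 CPM in deleted and 11.1 ± 2.32 CPM in intact cultures (adjusted p = 0.0186, edgeR). The call of Aldh2 was lost without intact replicate 2, 3 or 4 (adjusted p = 0.0539, 0.0536 and 0.0635), and that of Aldh3b1 without intact replicate 1, 3 or 4 (0.0588, 0.0536 and 0.0774). With littermates summed all 3 calls were lost (adjusted p = 0.0592 for Aldh1l2, 0.0545 for Aldh2 and 0.0725 for Aldh3b1, edgeR).

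The later steps differed in what could be measured. Of 21 epoxide hydrolases and conjugating enzymes found in the count table besides Ephx1 and Ugt1a6a, 5 had enough reads to be tested. edgeR called 0 of them, 2 had an unadjusted p under 0.05 (edgeR), and DESeq2 called 1. Of all 13498 tested genes, edgeR called 7.90%, 3539 had an unadjusted p under 0.05 (edgeR), and DESeq2 called 2200.

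Of 6 tested conjugate exporters besides Abcc1, only Abcg2 was called, beside 7.90% of all tested genes called in either direction. This ATP-driven exporter, also a marker of stem cells, fell to 12.7, 34.0, 13.7 and 12 CPM in deleted cultures, against 43.3, 56.7, 44.1 and 41.6 CPM in intact cultures. Deleted replicate 2 was the highest of its group and still below all intact cultures. The log2 fold change was -1.36 ± 0.34 (adjusted p = 0.0464, edgeR) and -1.86 without deleted replicate 2. Leaving out any other single library ended the call (adjusted p 0.0643 to 0.137), as did summing littermates (0.185).

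The genes whose profile over the 8 libraries lay nearest to Nqo1 were sought by root mean square distance of log2 CPM, each gene centred on its own mean. Plec, which encodes a cytoskeletal linker, was nearest at 0.193, and Slc7a11 next at 0.225. P2rx6, an identifier without a symbol and Parp10 followed at 0.318, 0.321 and 0.322. Aox1 ranked 11 at 0.442 and Ugt1a6a ranked 66 at 0.687. The nearest to Nfe2l2 were Gtf2e1, Smo, Mbd2, Gm3150 and Ssbp3, at 0.0575 to 0.0837, and among the members Cbr1 came first at rank 645. All 8 points share the same genotype split, so likeness to Nqo1 is mainly likeness in that difference.

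Cell type markers also differed between the cultures, and in bulk RNA fewer cells of a type and less RNA per cell cannot be told apart. Of 9 tested astrocyte markers, 5 were called higher, beside 5.10% of all tested genes. The summed level of the list was 5307, 497, 1975 and 1547 CPM in deleted replicates 1 to 4, against 331 to 552 CPM in intact cultures. Aox1 and Ugt1a6a were highest in deleted replicate 1, as was the astrocyte sum. In deleted replicate 2 the astrocyte sum was within the intact range, but single markers went both ways. There Aqp4 had 15.1 CPM, Apoe 33.1, Fgfr3 57.5 and Aldoc 72.1 CPM, each above every intact culture (at most 1.91, 11.6, 23.9 and 62.1 CPM). Gfap, at 1.38 CPM, was also above (at most 1.13 CPM). Slc1a2 had 5.33, Gja1 14.7 and S100b 3.03 CPM, each below every intact culture (at least 29.8, 27.5 and 3.95 CPM). Sparcl1, at 294.7 CPM, was within the intact range of 183.4 to 309.1 CPM. Nqo1, Aox1 and Ugt1a6a had 48.1, 42.2 and 6.52 CPM in that library.

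Of 3 tested mesenchymal and mural cell markers, 2 (Acta2 and Thbs2) were called higher, beside 5.10% of all tested genes. Tagln was not called, and Col1a1, Col1a2, Pdgfrb, Rgs5 and Lum were at most 1.56 CPM in every library. Col3a1 (333.5 CPM) and Dcn (84.1 CPM) were high in deleted replicate 2 alone. The list summed to 5.90, 783, 22.7 and 242 CPM in deleted cultures, against 3.13 to 4.43 CPM in intact cultures. In deleted replicate 1, where that sum was lowest, Nqo1 had 50.8 CPM, Aox1 108.5 CPM and Ugt1a6a 14.7 CPM. Oligodendrocyte lineage markers summed to 481 to 1763 CPM in deleted and 1422 to 1782 CPM in intact cultures. Neuron markers summed to 927 to 1270 CPM in deleted and 1127 to 1186 CPM in intact cultures. Map2 alone gave most of this, with 778 to 1106 CPM in deleted and 1010 to 1056 CPM in intact cultures. Tubb3, by contrast, was at 1.38 to 6.04 CPM in all libraries. Of 8 tested neuron markers, 2 were called lower, beside 2.80% of all tested genes. Microglia markers were scarce, at 0.609 to 2.47 CPM in deleted and 2.74 to 3.71 CPM in intact cultures, with C1qa and C1qb at 0 in all libraries. Endothelial markers summed to 4.18 to 21.7 CPM in deleted and 4.58 to 9.57 CPM in intact cultures, and ependymal and choroid markers to 23.7 to 50.5 CPM in deleted and 20.1 to 25.2 CPM in intact cultures. The part of these cell types in the levels of the 10 genes was not tested.

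**Figure D5:**
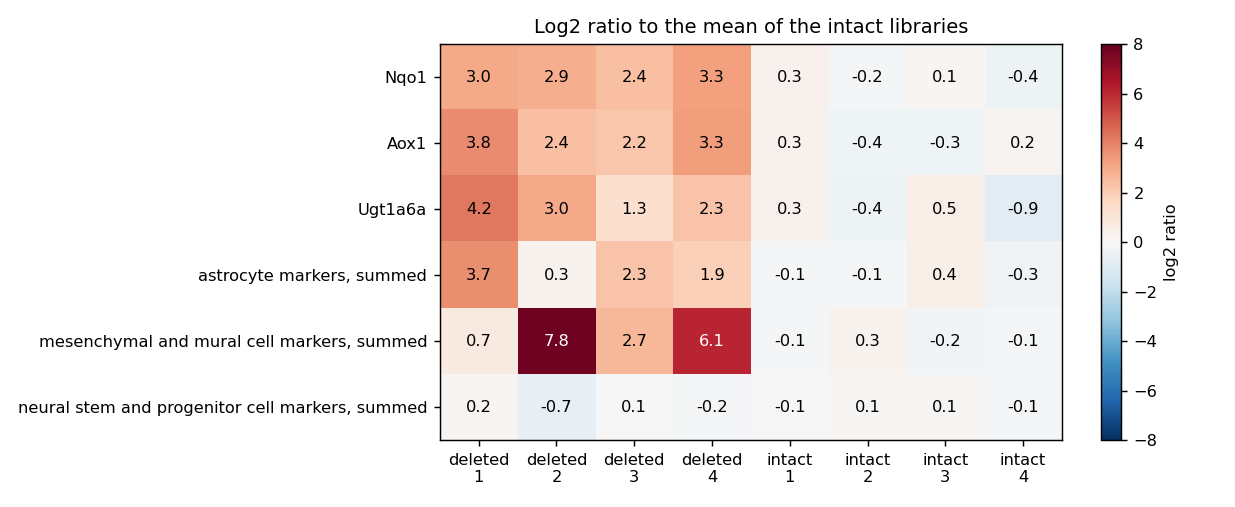
Log2 ratio of each library to the mean of the intact libraries, for Nqo1, Aox1, Ugt1a6a and 3 summed marker lists, with Kat7-deleted libraries left of Kat7-intact ones. The astrocyte sum is highest in deleted replicate 1 (3.71) and the mesenchymal sum in deleted replicate 2 (7.77), and Nqo1 lies between 2.39 and 3.28 in the deleted libraries.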

How the data were processed

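The deposited values are raw counts for each Entrez gene, made by the authors from single-end reads of polyadenylated RNA, per the labels' protocols. CASAVA 1.8.2, featureCounts and mm10 were used, per the submitters' processing notes. For the aligner and the strand setting the entry is: not given in the sources used here. Overlapping genes may share reads (10.9% of Keap1 exonic bases face Gm16754, 2.21% of Mafg lie in Sirt7 and 3.69% of Ephx1 in Gm36961).

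The test was edgeR 4.0.16 (R 4.3.3), with filterByExpr at a minimum count of 10, TMM scaling and the robust quasi-likelihood F test between 4 deleted and 4 intact libraries. Benjamini-Hochberg adjustment ran over all 13498 genes tested, and 0.05 was the threshold. CPM use TMM-scaled library sizes. Standard errors of log2 fold changes were derived from the test statistic. Means carry SD with n = 4. Alternatives used limma 3.58.1 and DESeq2 1.42.0. Replicates are cultures of separate fetuses, but intact replicates 1 and 2, and deleted replicates 3 and 4, were littermates, so their spread may understate that between litters. Replicate pairs differed beyond counting error, and more so among deleted cultures. The chi-square per degree of freedom was 75.4 to 189 for deleted pairs and 12.2 to 39.6 for intact pairs. The edgeR fit used the same dispersion of a gene for both genotypes.

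The members and lists were chosen with earlier results of these data known. The text names the 10 members, Kat7, up to 4 called genes of each list by smallest p (otherwise the most abundant per length) and the 5 nearest profiles, apart from an item that is not reported here. Cul3, Txnrd1, Gclc, Gsr, Gclm, Srxn1, Hmox1, Gstm2, Bach2, Cbr2, Aox2, Aox3 and Aox4 fall outside that rule and were chosen after their values were seen. Symbols, coordinates and start-site windows are RefSeq's for GRCm38.p6, the assembly also called mm10; 25275 identifiers matched and 1904 did not.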

Additional observations from a re-analysis of the deposited data

Results flagged for a closer look

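Dixon's test for a single library apart from its group was applied to 52 groups of 4 libraries (26 genes in each genotype), of which chance flags about 1 in 20, and 3 stood out. Abcg2 had 33.97 CPM in deleted replicate 2, against 12 to 13.67 CPM in the other deleted libraries. Abcg2 also had 56.69 CPM in intact replicate 2, against 41.57 to 44.07 CPM in the other intact libraries. Cyb5r3 had 124.6 CPM in intact replicate 4, against 143.6 to 146.0 CPM in the other intact libraries. None of the 10 NRF2, KEAP1 and detoxification genes was among the 3.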

How the results depend on the processing

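Nqo1 and Aox1 were called higher in all 22 settings and Ugt1a6a in 15, and between 2 and 4 of the 10 members were called. Ugt1a6a was also lost with litter as a random block, with littermates summed and with the replicate block. The sign of Maff turned without deleted replicate 1 (0.13), without intact replicate 1 (0.02), and, in alternatives chosen after seeing the data, without deleted replicates 1 and 3, which kept over 200 Kat7 reads (0.32), or without deleted replicates 1 and 4 (0.0072). Over all settings that left out 1 library, Maff ran from -0.30 to 0.13. Cbr1 turned to -0.0437 with library totals alone.

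The number of genes called, 1066 of all and 19 of the pathway lists, was 673 of all with library totals alone. It was 2200 and 30 with DESeq2, 2283 and 31 with limma-voom sample weights, 193 and 9 with littermates summed, and 2299 and 29 without deleted replicates 1 and 3. Litter as a random block gave 414 of all. Leaving out 1 library gave 189 to 2182 of all and 7 to 31 of the lists, lowest without an intact library and highest without deleted replicate 2. The cause of these shifts was not tested. The replicate block gave 319 of all and 14 of the lists. Same-numbered cultures correlated at 0.096, 0.221, 0.11 and 0.331, deleted replicates 2 and 4 correlated best with their own number, and deleted replicates 1 and 3 with intact replicates 3 (0.251) and 1 (0.163). Since not every pair exceeded 0.1, the numbers were not taken as pairs, which is a hint from the data and not from the design. Depth limits Ugt1a6a most, with 10 to 23 reads in intact libraries.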

Other observations

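Bach2, the lymphoid and neuronal relative of Bach1, had 6.78, 1.56, 5.27 and 4.70 CPM in deleted cultures, against 12.8, 12.9, 8.66 and 17.9 CPM in intact cultures. All deleted values lay below all intact values, with a log2 fold change of -1.50 ± 0.41 that missed the threshold (adjusted p = 0.0581, edgeR). Cbr2, a carbonyl reductase too scarce to be tested, had 3, 20, 4 and 22 reads in deleted libraries, against 0, 1, 2 and 0 reads in intact libraries. The highest Cbr2 counts were in deleted replicates 2 and 4, the libraries with the highest mesenchymal and mural cell marker sums of 783 and 242 CPM. Those libraries also had the fewest Kat7 reads (4 and 1, against 416 and 253 in deleted replicates 1 and 3). A link of Cbr2 to either trait was not tested, and here the traits cannot be told apart.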
